A study of Mus musculus with 4 samples.

Results

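The 7 genes described here make and load MHC class II molecules: Cd74, H2-Aa, H2-Ab1, H2-Eb1, H2-DMa, H2-DMb1 and Ciita. They were taken by name from the gene list of the count matrix, where all 7 are present among 27998 genes. The matrix holds 15053 cells from the small intestine of male mice kept on a control diet or on a ketogenic diet, in which fat replaces nearly all carbohydrate. Each diet has 2 single-cell libraries, called control 1, control 2, ketogenic 1 and ketogenic 2 below. The sources used here do not give strain, age, time on the diet or how many animals a library pools. For the diet tests within a cell type or over all cells, p-values therefore measure the spread between libraries, which may be technical. That spread is estimated partly from other genes, so it can be smaller than a gene's own. Tests that compare cell types take the library out as a block. Their p-values measure the scatter that remains between types within libraries, estimated jointly over the types compared.

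Class II molecules carry peptides from outside the cell to the cell surface, where CD4 T cells read them. An alpha and a beta chain form the peptide groove: H2-Aa with H2-Ab1 in the I-A molecule, and H2-Eb1 as the beta chain of I-E. The invariant chain Cd74 holds the groove closed on the way to the endosome, and the DM heterodimer of H2-DMa and H2-DMb1 exchanges its remnant for peptide. Ciita is the coactivator that switches all of these genes on together, and interferon gamma induces it in many cells that are not professional antigen presenters. Intestinal epithelium, stem cells included, is known to be able to express class II.

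Of the 7 genes, 5 lie on chromosome 17 of the GRCm38 build, in the order H2-DMa (34119541 to 34139101, plus strand), H2-DMb1 (34153072 to 34160230, plus), H2-Ab1 (34257689 to 34269419, plus), H2-Aa (34282744 to 34287823, minus) and H2-Eb1 (34305867 to 34316674, plus). H2-DMb1 has a close paralog, H2-DMb2, with 2, 1, 1 and 0 UMIs. These counts cannot show how many reads that match both genes were left uncounted. An annotated antisense gene overlaps the 5′ end of H2-Eb1, and the sources used here do not give the strand setting of the counting.

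Class II promoters are known for a shared module in which an X box, bound by RFX factors, precedes a Y box, bound by NF-Y, at a fixed distance. Ciita docks on the proteins bound there. RefSeq promoter sequences (GRCm38.p6) were at hand for 4 of the 7 genes, and the core letters GNAAC followed on the same strand by ATTGG were searched in the 250 bases before each start. The letters and the spacing of 30 to 36 bases between their starts were chosen after the sequences were seen. The pair was found on the gene's strand for 3 of the 4 genes, H2-Aa, H2-Eb1 and H2-DMb1, and in neither window of H2-DMa. Of all 32851 windows, 0.517% hold it on the gene's strand and 1.04% on either strand. The stretches of the I-A alpha gene (chr17:34287857-34287914, minus strand) and of the I-E beta gene (chr17:34305766-34305822, plus strand) are shown because these chains moved together in the values that follow. Both are written 5′ to 3′ with the letter pair in capitals.
H2-Aa: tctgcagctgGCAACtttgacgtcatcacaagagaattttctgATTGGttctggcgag
H2-Eb1: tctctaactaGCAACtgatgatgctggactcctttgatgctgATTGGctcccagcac
The pair starts 81 and 48 bases before the start site in H2-Aa, and 91 and 59 bases before it in H2-Eb1. In H2-DMb1 the starts are 94 and 61 bases before the site. That stretch lies inside the gene as GENCODE M21 draws it, so its letters are not printed.

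Control 1 stood apart from the other 3 libraries in these genes, and the diet comparisons of these genes rest on it. Summed over all cells, the 7 genes held 30537 UMIs in control 1, 1790 in control 2, 1328 in ketogenic 1 and 2387 in ketogenic 2. That is 1046, 52.5, 48.6 and 78.8 CPM, which are counts per 1000000 UMIs of the same cells. Depth was similar, with totals of 27316428 to 34106639 UMIs over 3194 to 4896 cells and median cells of 6974.5 to 9040.0 UMIs. All cells carry 1 of 7 epithelial annotations by the authors. Of 8 markers listed for each type, 8 were highest in their own type for stem, Paneth, enteroendocrine and tuft cells, 6 for enterocytes and goblet cells, and 4 for transit amplifying cells. Cell barcodes found in over 1 library numbered 109.

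Cd74, the invariant chain (chromosome 18, 60803848 to 60812652, plus strand), gave the most UMIs of the 7. In stem cells it stood at 1141 CPM in control 1 (95% interval 1093 to 1189), 73.9 in control 2 (65.0 to 83.8), 85.3 in ketogenic 1 (72.0 to 100.3) and 109 in ketogenic 2 (98.0 to 120.5). These and the other intervals are exact Poisson intervals that cover counting error only. In enterocytes the values were 680, 24.8, 22.5 and 41.4 CPM in the same order. Control 1 was thus 10.5 to 15.4 times each other library in stem cells and 16.4 to 30.2 times in enterocytes, while the other 3 libraries lay within a narrow band that held both diets. Control 1 was again highest in transit amplifying cells, at 729, 23.2, 40.1 and 42.9 CPM, and in goblet cells, at 252, 6.91, 10.6 and 11.1 CPM. In the rarest types the low libraries rested on few UMIs: Cd74 had 36, 3, 1 and 4 UMIs in enteroendocrine cells and 63, 10, 2 and 15 in tuft cells.

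**Figure D1:**
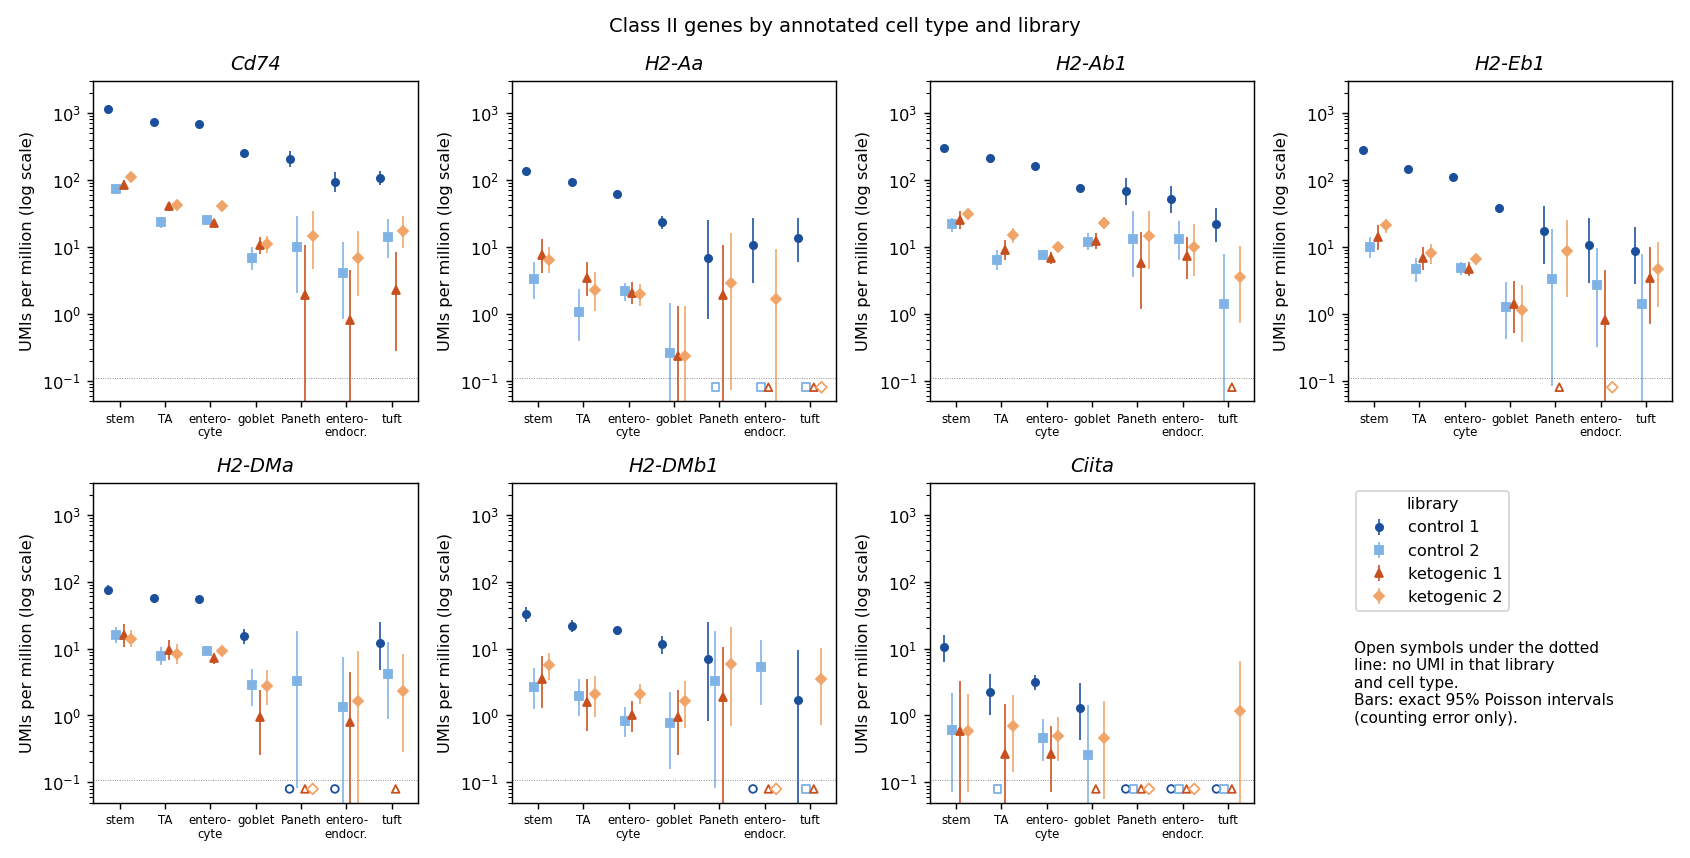
Level of each class II gene (CPM, log scale) in 7 annotated cell types, 1 symbol per library, with exact Poisson 95% intervals. Control 1 lies above the other 3 libraries in stem, transit amplifying, enterocyte and goblet columns of every gene, as at 680 CPM against 22.5 to 41.4 for Cd74 in enterocytes, and open symbols mark types with no UMI.

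The 3 chains followed Cd74. H2-Aa, the I-A alpha chain, stood at 60.9, 2.16, 2.07 and 1.95 CPM in enterocytes of control 1, control 2, ketogenic 1 and ketogenic 2. H2-Ab1, its beta partner, stood at 163, 7.55, 6.82 and 10.0 CPM, and H2-Eb1 at 109, 4.78, 4.68 and 6.52 CPM. Control 1 exceeded the others by 28.2 to 31.3 times for H2-Aa, 16.2 to 23.9 times for H2-Ab1 and 16.7 to 23.3 times for H2-Eb1. In stem cells the chains were higher in each library, as at 138, 3.31, 7.59 and 6.47 CPM for H2-Aa and 282, 9.92, 14.0 and 20.9 CPM for H2-Eb1. No other library overlapped control 1 for any chain in either type.

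The peptide-loading genes showed a smaller gap for the alpha subunit. H2-DMa stood at 55.7, 9.25, 7.16 and 9.14 CPM in enterocytes, so control 1 was 6.03 to 7.79 times the others. Its partner H2-DMb1 stood at 18.7, 0.822, 1.00 and 2.13 CPM, a gap of 8.76 to 22.7 times. Per Cd74 UMI, enterocytes held 0.0820 H2-DMa UMIs in control 1 and 0.373, 0.318 and 0.221 in the other libraries. H2-DMa therefore made up more of the class II counts where these were low. The switch gene Ciita (chromosome 16, 10480059 to 10528418, plus strand) was seen with 91, 12, 6 and 16 UMIs over all cells, or 3.12, 0.352, 0.220 and 0.528 CPM. The interval of control 1, 2.51 to 3.83 CPM, does not overlap that of any other library, the highest upper bound of which is 0.858. In stem cells Ciita gave 20, 2, 1 and 2 UMIs, and in the Paneth class and enteroendocrine cells it gave 0 in all 4 libraries. For the enteroendocrine cells of control 1 a count of 0 still allows up to 7.88 CPM, so a level like that of the enterocytes was not detectable there.

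The first comparison set the cell types against enterocytes within the same libraries, with the library as a block. Stem cells carried more of each class II gene than enterocytes in all 4 libraries. The Cd74 ratio of stem cells to enterocytes was 1.68, 2.98, 3.79 and 2.63 in control 1, control 2, ketogenic 1 and ketogenic 2. For H2-Ab1 it was 1.86, 2.87, 3.68 and 3.07, and for H2-Eb1 2.59, 2.08, 2.99 and 3.20. In edgeR's quasi-likelihood test with Benjamini-Hochberg adjustment over all genes, 6 of the 6 class II genes tested were higher in stem cells, where 21.7% of all 11069 genes were higher. H2-Eb1 rose most, by 1.35 ± 0.13 on the log2 scale (standard error, adjusted p = 3.21e-11). Cd74 rose by 1.25 ± 0.13, H2-Ab1 by 1.21 ± 0.20 and H2-Aa by 1.16 ± 0.16. The DM genes rose by 1.03 ± 0.26 for H2-DMb1 and 0.58 ± 0.13 for H2-DMa, the smallest of the 6. Ciita was too low to be tested, at ratios of 3.31, 1.30, 2.18 and 1.21. Without control 1 the 6 genes stayed higher in stem cells, by 0.76 to 1.59. With DESeq2, H2-Aa (1.30, adjusted p = 0.0579) and H2-DMa (0.71, adjusted p = 0.0742) missed the threshold.

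Transit amplifying cells, the dividing daughters of stem cells, lay near enterocytes. Only H2-Aa was called higher of the 6 tested, by 0.43 ± 0.15 (adjusted p = 0.0218 by edgeR), where 18.2% of all genes were higher. Without control 1 its value was -0.02. Cd74 ratios to enterocytes were 1.07, 0.936, 1.79 and 1.04, and the test gave 0.16 ± 0.13 (adjusted p = 0.347). Stem cells thus stood first in the order of levels, while transit amplifying cells and enterocytes were neighbours that this test did not separate for Cd74.

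Secretory types stood lower. In goblet cells, which make mucus, 4 of 6 class II genes were lower than in enterocytes: H2-DMa by -1.82 ± 0.17, H2-Eb1 by -1.57 ± 0.17, H2-Aa by -1.49 ± 0.20 and Cd74 by -1.36 ± 0.15 on the log2 scale. The share of all genes lower in goblet cells was 28.6%. In the Paneth class, the antimicrobial cells of the crypt base, 4 of 6 were lower, where 18.3% of all genes were. Cd74 differed there by -1.31 ± 0.29 and H2-DMa by -4.28 ± 0.82. H2-DMa had 1 UMI in the whole class, so the size of that value is not firm. Without control 1 only Cd74 and H2-DMa stayed lower in the Paneth class. Enteroendocrine cells, the hormone makers, were lower in 6 of 6 (34.5% of all genes), with Cd74 at -3.22 ± 0.28. Tuft cells, chemosensory cells, were also lower in 6 of 6 (29.6% of all genes), with Cd74 at -2.46 ± 0.24. Without control 1 that count was 4 of 6 in both types. The authors' annotation was made on these same cells, and the sources used here do not say which genes were used for it.

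**Figure D2:**
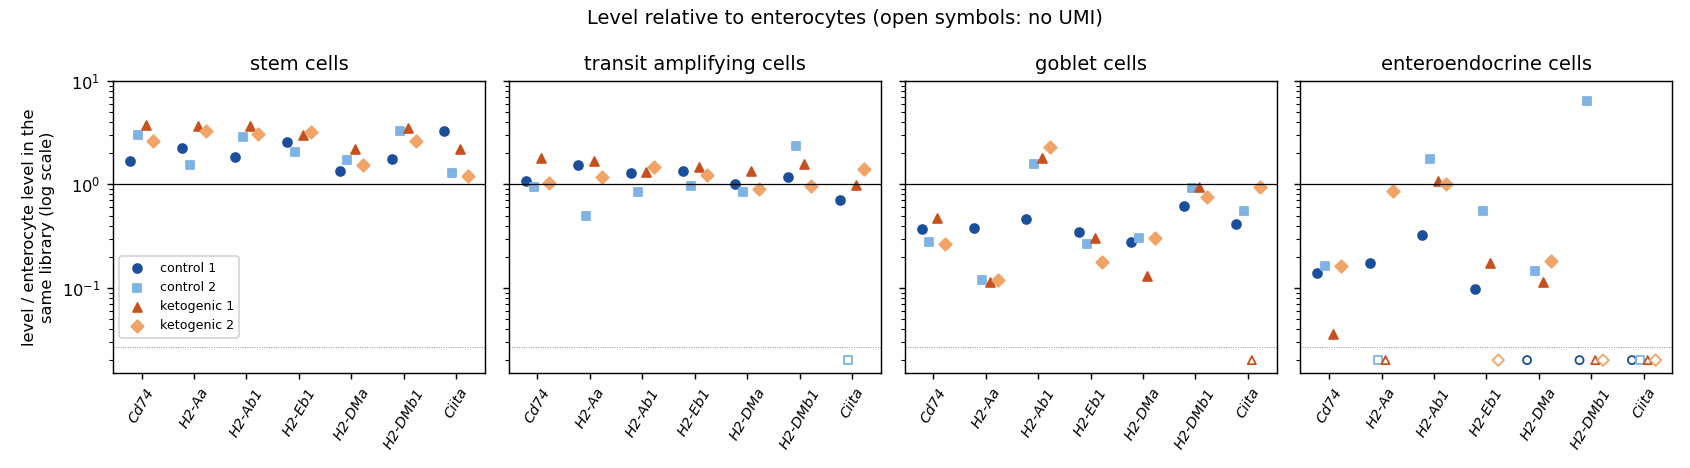
Level of each gene divided by the enterocyte level of the same library (log scale), 1 symbol per library, with the line at 1 for equal levels. All 28 stem cell points lie above 1, and H2-Ab1 is the gene above 1 in goblet cells of control 2, ketogenic 1 and ketogenic 2, at 1.59, 1.82 and 2.28.

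H2-Ab1 did not keep step with its partners in goblet and enteroendocrine cells, nor, on very few UMIs, in the Paneth class. In goblet cells H2-Ab1 stood at 76.3, 12.0, 12.4 and 22.9 CPM, which is 0.468 times the enterocyte level in control 1 and 1.59, 1.82 and 2.28 times in the other 3 libraries. The test over all libraries gave 0.00 ± 0.21 (adjusted p = 0.993). Without control 1, H2-Ab1 was called higher in goblet cells, by 1.02 (adjusted p = 2.9e-07 by edgeR), while H2-Aa stayed lower, by -2.93. The UMIs show this directly. Goblet cells of the 3 low libraries held 47, 53 and 99 H2-Ab1 UMIs but 1, 1 and 1 of H2-Aa, 5, 6 and 5 of H2-Eb1 and 27, 45 and 48 of Cd74. Cd74 UMIs per H2-Ab1 UMI were 0.574, 0.849 and 0.485 there, against 3.31 in goblet cells of control 1 and 3.29 to 4.17 in enterocytes of the 4 libraries. These H2-Ab1 UMIs were spread over 41, 41 and 78 goblet cells, with at most 4 in a cell. Of those cells, 4, 6 and 10 also had a Cd74 UMI and 0, 0 and 0 an H2-Aa UMI.

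Enteroendocrine cells showed the same imbalance on smaller numbers. H2-Ab1 gave 20, 10, 9 and 6 UMIs there, and Cd74 gave 36, 3, 1 and 4. The Cd74 to H2-Ab1 ratio was 1.80 in control 1 and 0.300, 0.111 and 0.667 in the others. H2-Ab1 was called lower than in enterocytes over all libraries (-1.09 ± 0.42, adjusted p = 0.0214 by edgeR), and stood at -0.00 without control 1. Stem cells kept the enterocyte proportion, at 3.77, 3.42, 3.40 and 3.52 Cd74 UMIs per H2-Ab1 UMI. The stem ratio was 5.95, 4.00 and 7.27 times the goblet ratio in the 3 low libraries, whereas in control 1 the stem, enterocyte and goblet ratios were near each other, at 3.77, 4.17 and 3.31. The Paneth class leaned the same way on very few UMIs, with 20, 4, 3 and 5 of H2-Ab1 beside 60, 3, 1 and 5 of Cd74. Its Cd74 to H2-Ab1 ratio was 3.00 in control 1 and 0.750, 0.333 and 1.00 in the others. Tuft cells did not show the imbalance: H2-Ab1 gave 13, 1, 0 and 3 UMIs there, beside 63, 10, 2 and 15 of Cd74, and stood at 0.137, 0.187, 0 and 0.348 times the enterocyte level.

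The diets were compared next, in each cell type. Ketogenic libraries were lower than the mean of the controls for all class II genes tested, but control 2 did not share the high level of control 1, and few calls were made. In stem cells Cd74 was called lower, by -2.57 ± 0.56 on the log2 scale (adjusted p = 0.0416 by edgeR). It was the only one of 6 tested, where 0.336% of all 9514 genes were called in either direction. Its controls stood at 1141 and 73.9 CPM. The standard error, drawn partly from other genes, does not reflect the full width of that gap. The other 5 ranged from -1.48 ± 0.41 for H2-DMa to -3.17 ± 0.81 for H2-Aa, with H2-Ab1 at -2.39 ± 0.58 (adjusted p = 0.0848), and none passed. The stem cell median of the 6 was -2.48 beside 0.00 over all genes tested, and all 6 were below 0 as were 4749 of the 9514 genes.

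In enterocytes 0 of 6 class II genes were called (background 0.180%), though 5 had an unadjusted p under 0.05 in edgeR. Of all 11697 genes, 1159 had such a p. The class II values ran from -1.98 ± 0.71 for H2-DMa to -3.95 ± 1.33 for H2-Aa, with Cd74 at -3.46 ± 1.22 (adjusted p = 0.422). The same held with DESeq2, which called 0 and gave 4 with an unadjusted p under 0.05, beside 745 of all genes. In transit amplifying cells 0 of 5 were called (background 0.715%), with 5 unadjusted in edgeR, 0 in DESeq2 and Cd74 at -3.12 ± 0.93. In goblet cells 0 of 3 were called (background 0.521%), with 3 unadjusted in edgeR, 1 in DESeq2 and Cd74 at -3.56 ± 0.89. In tuft cells only Cd74 could be tested and was not called, at -2.56 ± 0.78 (adjusted p = 0.853, background 0.0144%). No class II gene passed the filter on low counts in the Paneth class or in enteroendocrine cells. Over all cells 0 of 7 were called (background 0.172%), with 5 unadjusted in edgeR, 2 in DESeq2 and Ciita at -2.17 ± 0.98. Among all genes, unadjusted p under 0.05 in edgeR numbered 927 of 10069 in transit amplifying cells and 895 of 9984 in goblet cells. They numbered 1400 of 12784 over all cells. In DESeq2 they numbered 309, 247 and 990 in the same order. The exact permutation test of 2 against 2 libraries allows 6 assignments and no two-sided p below 0.33.

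Leaving out control 1 turned the contrast for Cd74 in 4 cell types and not in tuft cells, where it stood at -0.55 (adjusted p = 0.943 by edgeR). Cd74 then stood at 0.40 in stem cells (adjusted p = 0.339 by edgeR), 0.35 in enterocytes (adjusted p = 0.739) and 0.60 in goblet cells (adjusted p = 0.488). In transit amplifying cells it was called higher on the ketogenic diet, by 0.83 (adjusted p = 0.000151), the 1 call among 5 genes where 2.12% of all genes were called. In stem cells 5 of the 6 tested genes were then above 0, and only H2-DMa was not, at -0.14. In enterocytes 4 of 6 were above 0, with H2-Aa at -0.11 and H2-DMa at -0.19. Leaving out control 2 instead left control 1 alone for its diet. All class II genes tested were then lower on the ketogenic diet in stem cells and in enterocytes. More genes of any kind were called in that fit than with all libraries, so its calls are not counted here. The lone control library is assumed in these fits to vary like the ketogenic pair. The fall of Cd74 in stem cells is therefore a difference between 1 library and the other 3, and cannot be told apart from whatever else set control 1 apart. Whether the diet effect differed between stem cells and enterocytes was tested in 1 fit, and 0 of 7 genes were called (background 0.259%). Unadjusted p under 0.05 numbered 3 in edgeR and 1 in DESeq2, beside 803 and 147 of all 11570 genes. The difference was 0.59 ± 0.19 for Cd74 (adjusted p = 0.287) and 0.72 ± 0.22 for H2-Ab1 (adjusted p = 0.260).

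**Figure D3:**
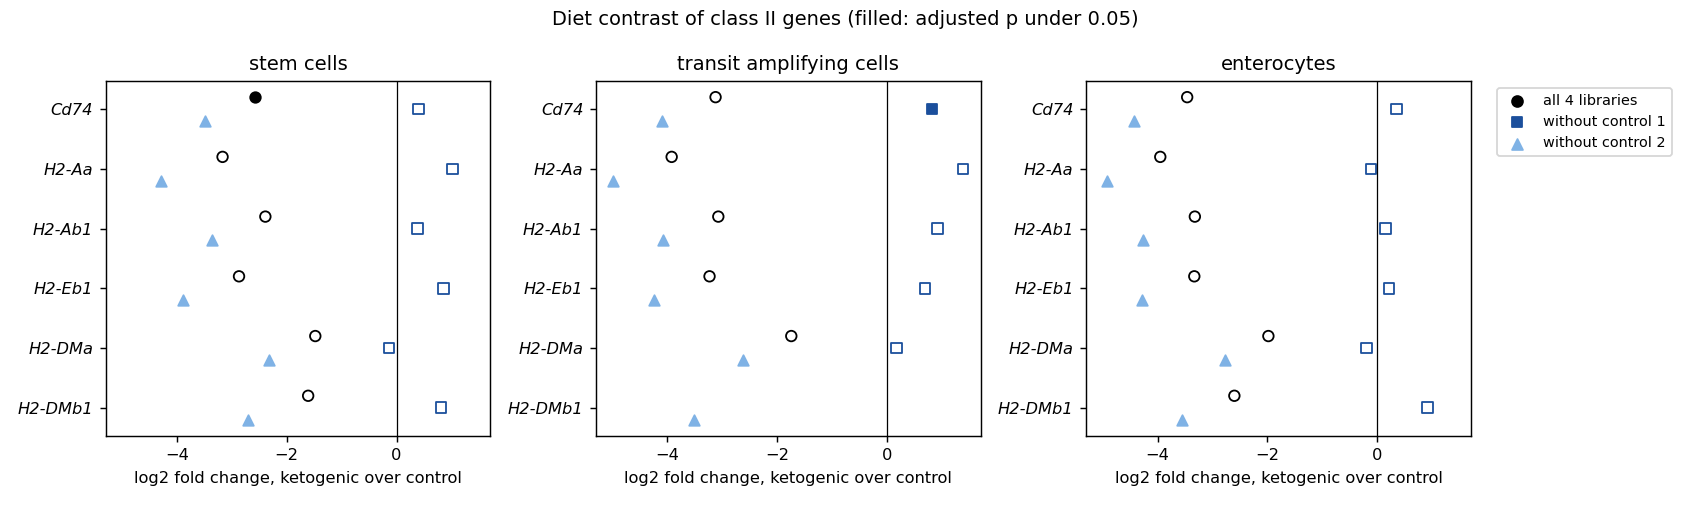
Log2 fold change of 6 class II genes, ketogenic over control, with all 4 libraries, without control 1 and without control 2; filled symbols passed an adjusted p of 0.05. In stem cells Cd74 moves from -2.57 with all libraries to 0.40 without control 1.

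Class II UMIs were spread over most cells of control 1 and over few cells elsewhere. To compare shares at equal depth, each cell was thinned to 3000 UMIs, which left out 402 to 892 shallower cells per library. In stem cells 85.1% of thinned cells of control 1 had a UMI of any of the 7 genes (exact interval 80.1 to 89.3), against 18.5%, 16.5% and 21.7% in control 2, ketogenic 1 and ketogenic 2. In enterocytes the shares were 63.4%, 9.05%, 6.86% and 10.9%. Unthinned shares were 89.1%, 27.1%, 25.6% and 29.8% in stem cells and 74.8%, 15.1%, 13.1% and 20.5% in enterocytes. Tuft cells, in which class II was low, had thinned shares of 20.6%, 4.04%, 1.96% and 6.12% and median depths of 7492, 5557, 8138 and 7604.5 UMIs, beside 5646, 6294, 5820.5 and 7722 in stem cells. Enteroendocrine shares were 27.9%, 9.23%, 3.37% and 5.68%. Stem cell shares exceeded those of both types in each library, and enterocyte shares did so in all but control 2.

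Within a type the counts were uneven. The 10% of enterocytes with the most class II UMIs held 48.8% of these UMIs in control 1 and 85.5%, 91.9% and 83.9% in the other libraries. Enterocytes with 10 or more numbered 619 of 2156 in control 1, 14 of 2771 in control 2, 14 of 1748 in ketogenic 1 and 33 of 1799 in ketogenic 2. Among stem cells they were 38.5% of the cells in control 1 and 1.44%, 3.15% and 3.48% in the others. Cells with high class II counts were thus present in every library and on both diets, as a small number in all but control 1, where they were 940 cells over all types. In thinned enterocytes that had a Cd74 UMI, 65.3%, 26.0%, 30.9% and 33.7% also had a chain UMI, against 14.1%, 2.25%, 1.28% and 1.91% of those without Cd74. A chain UMI was thus more frequent in enterocytes with Cd74 than in those without it, in all 4 libraries. Goblet cells of ketogenic 2 did not show this, at 7.69% (1 of 13 cells) against 7.92%.

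**Figure D4:**
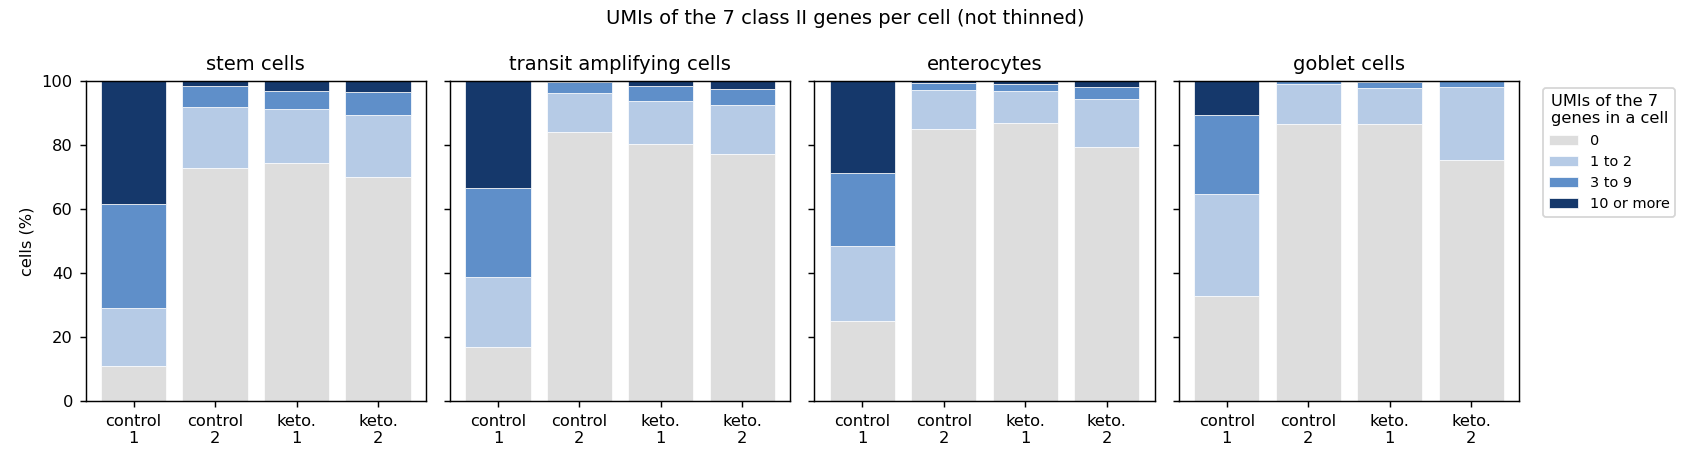
Share of cells (%) by number of UMIs of the 7 genes in the cell, unthinned, for 4 cell types and 4 libraries. Cells with 10 or more make up 38.5% of stem cells in control 1 and 1.44% to 3.48% in the other libraries.

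Summed over each list, markers of professional antigen-presenting cells and other leukocytes were not highest in control 1, apart from the few plasma cell UMIs. The dendritic cell and macrophage list of 16 genes summed to 1.92 CPM in control 1, the lowest of the 4, beside 4.52, 3.00 and 2.48. In control 1, 11 of the 16 were at 0, among them Itgax, Flt3, Xcr1, Clec9a, Csf1r and Adgre1. The 10 B cell genes gave 2.12, 2.26, 2.23 and 2.34 CPM, with the defining gene Blk at 0 in all libraries and Cd79b holding most of the UMIs. The 10 pan-leukocyte genes gave 13.8, 16.4, 12.8 and 15.6 CPM, mostly Lcp1, which epithelium also expresses. Single leukocyte genes went the other way: Srgn, a granule proteoglycan core protein, had 33, 8, 0 and 8 UMIs, Cd53 had 5, 3, 0 and 0, and the T cell receptor subunits Cd3d and Cd3g had 12, 4, 0 and 4 and 25, 22, 1 and 15. Their part in the class II level of control 1 was not tested. The T cell and innate lymphoid list stood at 10.4, 13.6, 0.659 and 18.8 CPM, in another order of libraries than class II. Plasma cell genes, 3 in the matrix, gave 1.78, 1.23, 1.21 and 0.627 CPM. Costimulatory molecules that professional cells carry were nearly absent: Cd80 had 1, 1, 0 and 0 UMIs, Cd86 had 0 in all 4 libraries and Cd40 had 1, 3, 7 and 4.

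Cells with a pan-leukocyte UMI carried more class II in the low libraries, and their part was not tested beyond the following values. Where enterocytes had such a UMI, the 7 genes stood at 1357, 123, 132 and 123 CPM, and in those without one at 1066, 42.3, 36.5 and 64.6 CPM. Of the cells with 10 or more class II UMIs, 793 of 940, 17 of 24, 25 of 30 and 47 of 60 had no UMI of the B, dendritic, T or pan-leukocyte lists. In control 2, 2 cells annotated as enterocytes had 81 and 24 class II UMIs together with 29 and 25 dendritic and macrophage UMIs. Leaving out cells with 10 or more UMIs of that list, an alternative chosen after seeing the data, moved the enterocyte level of the 7 genes in control 2 from 49.8 to 44.1 CPM. The other 3 libraries gave the same 3 digits with and without such cells.

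The other genes of class II presentation named here did not share the gap of control 1. The list holds 20 genes, of which H2-Eb2 and H2-Ob had 0 UMIs in all libraries. In the diet test 0 of 14 tested were called in stem cells (background 0.336%) and 0 of 15 in enterocytes (background 0.180%). Unadjusted p under 0.05 by edgeR numbered 1 and 4, beside 611 of all 9514 and 1159 of all 11697 genes. The medians of the list were 0.00 and -0.19. Ifi30, the thiol reductase that unfolds antigens, stood at 252, 231, 165 and 184 CPM in enterocytes, and its diet value there was -0.47 ± 0.10 (adjusted p = 0.182 by edgeR). DESeq2 called Ifi30 lower, as the 1 of 15 in enterocytes (background 1.50%) and over all cells (background 1.65%). Ctsb, a lysosomal protease, stood at 249, 235, 188 and 217 CPM. Ctss, the protease that trims Cd74, stood at 70.2, 56.4, 42.2 and 48.5 CPM. Some factors that bind the X and Y boxes differed little between libraries in enterocytes: Rfx5 at 4.24, 3.70, 4.82 and 3.96 CPM, Rfxank at 10.5, 10.5, 9.23 and 9.20, and Nfyc at 31.1, 27.5, 23.4 and 23.4. Nfya, another such factor, stood at 10.4, 6.11, 9.43 and 10.3. In stem cells control 1 was highest for Nfya (19.8, 9.62, 12.8 and 10.6) and Rfx5 (6.24, 3.61, 3.50 and 3.53), but not for Rfxank or Nfyc. In enterocytes control 1 was 0.880 to 1.66 times each other library in Ifi30, Ctsb, Ctss, Rfx5, Rfxank and Nfyc. For Cd74 it was 16.4 to 30.2 times. Of these genes of the list and Nfya, all but Ifi30 and Ctsb were chosen after their values were seen.

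Some class I genes and interferon gamma targets shared part of the pattern. Over the 28 sums of library and cell type, the genes whose log2 CPM was most like the mean of Cd74, H2-Aa, H2-Ab1 and H2-Eb1 among 11632 ranked included Iigp1 (Pearson r = 0.811), Psmb8 (0.786), Thg1l (0.780), B2m (0.731), Psmb9 (0.702), H2-Q7 (0.685), Psmb10 (0.660), Casp12 (0.652) and Ifitm3 (0.646). The sums share 4 libraries, so these values are descriptions. The other members ranked at 0.772 for H2-DMb1, 0.755 for Ciita and 0.663 for H2-DMa. Over the 21 sums without control 1, r was 0.365 for Psmb8, 0.0134 for Thg1l and 0.830 for B2m. Psmb8, an immunoproteasome subunit, stood at 236, 74.8, 60.6 and 61.9 CPM in enterocytes, and B2m, the class I light chain, at 1049, 726, 731 and 758. Iigp1, an interferon gamma inducible GTPase, had 97, 0, 6 and 2 UMIs over all cells.

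The following genes were chosen after their values were seen. Igtp, an interferon gamma inducible GTPase, stood at 18.3, 3.96, 2.41 and 2.25 CPM in enterocytes. Tap1, the class I peptide transporter, stood at 35.5, 11.6, 11.8 and 10.9 CPM. Nlrc5, the class I counterpart of Ciita, had 27, 2, 2 and 4 UMIs over all cells. The receptor gene Ifngr1, named by rule, did not share this order, at 91.7, 100.2, 88.5 and 103 CPM. In the diet test in stem cells 0 of 19 class I and 0 of 9 interferon gamma genes were called (background 0.336%). Unadjusted p under 0.05 by edgeR numbered 3 and 2 there, beside 611 of all 9514 genes. In enterocytes 0 of 21 and 0 of 13 were called (background 0.180%), with 9 and 5 unadjusted, beside 1159 of all 11697 genes. DESeq2 called 4 class I genes lower there, H2-Q1, H2-Q2, H2-Q10 and H2-T3, and 1 interferon gamma gene, Zbp1 (background 1.50%). Without control 1, edgeR called H2-Q1 and H2-Q10 lower among the class I genes (background 1.91%). These 4 class I genes separated the diets, as at 26.9, 14.9, 6.02 and 6.52 CPM for H2-Q10 and 54.9, 45.4, 31.6 and 32.9 for H2-T3 in enterocytes, unlike Tap1. Psmb8, at 236, 74.8, 60.6 and 61.9 CPM, also had both controls above both ketogenic libraries, with control 2 much nearer to these than to control 1. The enterocyte medians were -0.49 and -0.35 beside 0.02 over all genes.

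Among type I and III interferon genes, Ifit1 and Oasl2 separated the diets in enterocytes. There Ifit1 stood at 5.18, 6.11, 0.268 and 0.426 CPM, so both controls lay above both ketogenic libraries. It fell by 3.98 ± 0.34 on the log2 scale (adjusted p = 0.0116 by edgeR). Oasl2, an antiviral gene of the oligoadenylate synthetase family, stood at 12.7, 11.6, 3.75 and 4.63 CPM and fell by 1.53 ± 0.17 (adjusted p = 0.0366). Of 22 genes of this list tested in enterocytes, these 2 were called, beside 0.180% of all genes, and 5 were called without control 1, beside 1.91%. In stem cells 0 of 8 were called (background 0.336%), with 5 unadjusted p under 0.05 by edgeR and 3 by DESeq2. Of all 9514 genes, 611 and 123 had such a p. Several other members also had both controls above both ketogenic libraries in enterocytes, without being called in the main test. Isg15 stood at 23.2, 14.4, 4.15 and 5.42 CPM there, and Bst2 at 35.4, 31.4, 19.0 and 23.1. Some members did not separate the diets, such as Ifit2 at 0.936, 0.668, 0.803 and 0.914 CPM. Control 2 thus had the Ifit1 and Oasl2 levels of control 1 with class II levels like those of the ketogenic libraries.

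**Figure D5:**
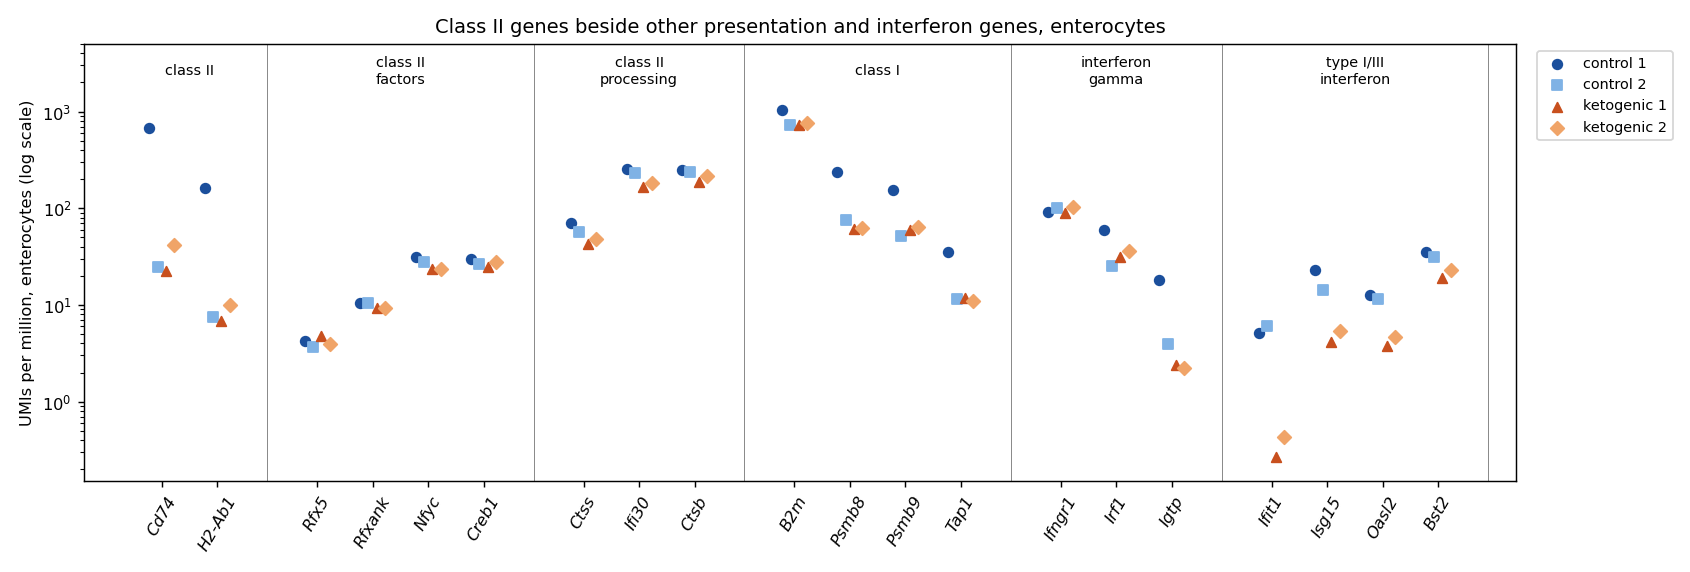
Level in enterocytes (CPM, log scale) of 2 class II genes and of genes for class II regulation and processing, class I, interferon gamma and type I and III interferon, 1 symbol per library. Control 1 stands alone for Cd74 and Psmb8, whereas Ifit1 separates the controls (5.18 and 6.11) from the ketogenic libraries (0.268 and 0.426).

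Within a library, enterocytes with high class II counts also had higher levels of B2m. Outside control 1, the values of the other genes given here rest on few such cells and are not firm. In enterocytes of control 1 with 10 or more class II UMIs, Psmb8 stood at 336 CPM and B2m at 1352, against 151 and 821 in enterocytes with none. The 12 such enterocytes of control 2, leaving out cells rich in dendritic markers, had B2m at 1107 CPM against 708 with none. B2m stood at 1111 against 709 CPM in ketogenic 1 (14 and 1519 cells) and at 1140.1 against 730.4 in ketogenic 2 (33 and 1429 cells). Psmb8 in those 3 libraries stood at 83.8 against 73.5, 155 against 57.7 and 88.2 against 58.1 CPM. Psmb9 in ketogenic 2 went the other way, at 48.6 against 63.9, as did Irf1 in ketogenic 1, at 24.8 against 30.1. Igtp was higher in the high cells of control 1, at 28.7 against 9.72 CPM. It had 0 UMIs in the few such enterocytes of the other 3 libraries. In enterocytes with none it stood at only 3.83, 2.31 and 1.68 CPM there, so a 0 in so few cells shows no difference. Cells with none were shallower, at a median of 4282 UMIs against 10325 in control 1 and 8628 against 11130.5 in ketogenic 1. They also had more mitochondrial UMIs, at a median of 24.8% against 7.36% in control 1 and 9.11% against 5.56% in control 2. The part of depth and RNA quality in the B2m difference was not tested.

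Regional markers differed between libraries too. Fabp6, a bile acid binding protein of the ileum, was found in 7.10%, 1.88%, 1.03% and 3.19% of thinned enterocytes. In control 1, enterocytes with Fabp6 had on average 3.08 class II UMIs per thinned cell and those without it 3.43. Slc51a and Slc51b, which form the basolateral bile acid exporter, were also highest in control 1, at 96.5, 57.6, 52.4 and 48.4 and at 42.7, 19.6, 15.9 and 15.8 CPM in enterocytes. The other listed genes of the distal small intestine were not highest there. Guca2b stood at 63.3, 115, 65.3 and 57.5 CPM and Mep1a at 6.39, 6.83, 7.96 and 7.73 in enterocytes. Slc10a2 had 5, 13, 13 and 5 UMIs over all cells. The part of intestinal region in the class II level of control 1 was not tested beyond these values. Mitochondrial transcripts took at least 10% of the UMIs in 45.0%, 39.0%, 40.9% and 38.0% of cells, and restricting the sums to the remaining cells left each diet count of called class II genes as it was.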

How the data were processed

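Raw UMI counts per gene and cell were deposited by the authors in 1 matrix, with a table giving each cell its library and cell type. The submitters' processing notes name Cell Ranger 2.1.0 and mm10. Filters on cells and the way types were assigned are not stated there. The 7 genes, the gene lists and the tests were chosen with earlier results of these data known. Other genes are named where the diet test called them in stem cells or enterocytes (up to 4 of a list), otherwise the 2 of a list with the most UMIs, plus the 10 most alike over 28 sums (log2 CPM, prior count 2, at least 100.0 UMIs). Some genes that this rule names are not reported here.

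Counts were summed per library and type, since cells are not replicates. CPM here is UMIs over that sum, scaled to counts per 1000000, with exact 95% intervals. A count of 0 is given the limit of 3 counts. The main test was edgeR 4.0.16 (quasi-likelihood fit, TMM, filterByExpr, Benjamini-Hochberg at 0.05) in R 4.3.3, ketogenic against control, or type against enterocytes with library as a block. Standard errors derive from the F statistic. The tests were checked on simulated counts. Alternatives were RLE factors, no filter, DESeq2 1.42.0, cells under 10% mitochondrial UMIs, cells without a pan-leukocyte UMI, the highest 6% of doublet scores removed, a replicate block and each library left out. Scrublet (scanpy 1.11.5) called 0.0204% to 0.188% of cells as doublets and was taken not to have worked. Replicate libraries were no copies: their chi-square over genes was 30.1 (control) and 22.6 (ketogenic) per degree of freedom.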

Additional observations from a re-analysis of the deposited data

How the results depend on the processing

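Of the 15 counts of called class II genes, the higher level in stem cells than in enterocytes held at 4 to 7 called genes under every alternative, and the counts in goblet, enteroendocrine and tuft cells against enterocytes stayed within 1.5 times. The diet counts did not hold.

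Leaving out each library in turn gave, for the diet, 0 to 7 called genes in all cells, 0 to 7 in stem cells, 0 to 6 in transit amplifying cells, 0 to 7 in enterocytes, 0 to 6 in goblet cells, 0 to 1 in the Paneth class, 0 to 2 in enteroendocrine cells and 0 to 1 in tuft cells. The highest counts came without control 2, where more of all genes were called than with all libraries. Stem cells gave 5 and 6 calls without ketogenic 1 and 2, and goblet cells 5 and 6. The difference of the diet effect between stem cells and enterocytes had 0 to 2. Against enterocytes, transit amplifying cells had 0 to 2 and the Paneth class 2 to 4. More genes passed the filter in some of these fits.

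Diet log2 values over the same fits ran from -3.49 to 0.40 for Cd74, -4.29 to 1.02 for H2-Aa, -3.36 to 0.38 for H2-Ab1, -3.89 to 0.86 for H2-Eb1 and -2.70 to 0.81 for H2-DMb1 in stem cells. In enterocytes they ran from -4.42 to 0.35 for Cd74, -4.27 to 0.15 for H2-Ab1, -4.28 to 0.22 for H2-Eb1 and -3.56 to 0.92 for H2-DMb1. Cd74 ran from -4.09 to 0.83 in transit amplifying and -4.51 to 0.60 in goblet cells, and from -0.02 to 0.90 for the difference of diet effects. Within a cell type, the diet values above 0 came without control 1. Against enterocytes, transit amplifying cells ran from -0.02 to 0.20 for Cd74 and -0.02 to 0.50 for H2-Aa, and goblet cells from -0.36 to 1.02 for H2-Ab1.

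Calls without the filter on low counts are given with the calls over all genes in parentheses. By diet they were 5 in all cells (407 of 17972), 6 in stem cells (74 of 14433) and 6 in transit amplifying cells (279 of 14815). Enterocytes had 5 (313 of 16687), the Paneth class 1 (44 of 11809) and enteroendocrine cells 1 (27 of 14219). The difference of diet effects had 1 (49 of 16893), and transit amplifying cells against enterocytes had 3 (4367 of 17972). DESeq2 called 0 by diet in stem cells, 0 in transit amplifying cells against enterocytes and 2 in the Paneth class against enterocytes. Without cells with a pan-leukocyte UMI the counts were 0 by diet in stem cells and 3 in transit amplifying cells against enterocytes. With the top 6% by doublet score removed they were 0 by diet in stem cells, 1 in goblet cells, 1 for the difference of diet effects and 2 in transit amplifying cells against enterocytes. That last comparison gave 2 with RLE factors and 0 under 10% mitochondrial UMIs. H2-Ab1 in goblet cells against enterocytes was -0.03 with RLE factors, -0.03 without the filter and -0.03 without high doublet scores. The cause of these changes was not tested.

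With the replicate number as a block, 6 genes were called lower by diet in stem cells, 5 in transit amplifying cells and 2 in goblet cells. Of all genes, 99 of 9514, 200 of 10069 and 104 of 9984 were called in these fits, in either direction. Whether the numbers mark a pairing could not be decided. Deviations from the diet means correlated over genes at -0.0073 between libraries with the same number. With 2 libraries per diet the second pair mirrors the first, so this is a single value.

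Depth limits Ciita and the rare types, where the 3 low libraries hold few UMIs.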
